A study of Mus musculus with 6 samples.

Results

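The plasminogen activator system was followed across 6 libraries of primary cancer-associated fibroblasts (CAFs), which are stromal cells of tumours. It was taken as the rows of the count table with 7 symbols: the activators Plau and Plat, the receptor Plaur, and the serpins Serpinb2, Serpine2, Serpinf1 and Serpinf2. All 7 were found among 24015 gene symbols, and 6 passed the filter on low counts, as did 13284 symbols in all. The family was chosen from earlier results of the same comparison, in which Serpinb2 was among the few genes called, so the changes after the siRNA are given as a description and not as support for the choice. The rule has no threshold on a measured value.

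The CAFs came from mammary tumours that arose in NeuT transgenic mice of BalbC background. The NeuT transgene is an activated form of the rat gene Her2/neu. Both groups therefore come from tumour-bearing animals with the transgene, and no fibroblasts of normal tissue were compared. Nanoparticles carried either a control siRNA (3 samples) or an anti-Stat3 siRNA (3 samples), and cells were exposed for 72 hours at 1 ug/mL. The comparison asks which transcripts change when Stat3 is silenced. STAT3 is a transcription factor activated by cytokines of the IL-6 family. Age, sex and the number of animals are not given in the sources used here. Each sample title carries a number from 1 to 3, and the 2 samples that share a number, 1 from each group, are called a pair because their profiles deviated together. Levels are given in CPM, the count as a share of the library after TMM scaling, and a change is log2 of anti-Stat3 over control siRNA.

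Plasminogen is a circulating zymogen that urokinase (encoded by Plau) and tissue plasminogen activator (Plat) cut into plasmin, a protease of fibrin and other matrix proteins. The urokinase receptor (Plaur) holds urokinase at the cell surface, and serpins stop the activators or plasmin by forming covalent complexes with them. In tumours the system is known for pericellular proteolysis during invasion, and stromal fibroblasts are a known source of its components.

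The promoter sequence is shown for Serpinb2, the member with the largest change, and for the receptor only a motif site is shown. RefSeq (GRCm38.p6) gave a promoter entry for 5 of the 7 members. Plau and Plat had none in the table used. The first Serpinb2 entry starts 250 bases before the transcript start and lies on the plus strand of chromosome 1, where chr1:107511173-107511422 is the stretch upstream of the start. Capitals mark TGANTCA, a looser pattern than the core of an AP-1 site, since it allows any base at its centre. As a pattern it reads the same on both strands.

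Serpinb2 promoter: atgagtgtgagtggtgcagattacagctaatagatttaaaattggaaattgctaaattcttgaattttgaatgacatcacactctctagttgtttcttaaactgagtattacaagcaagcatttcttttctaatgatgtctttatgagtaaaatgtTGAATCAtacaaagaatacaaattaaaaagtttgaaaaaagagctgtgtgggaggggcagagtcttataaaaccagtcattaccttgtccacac

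The second motif searched was TTCNNNGAA, the palindromic core of a STAT site, which also reads the same on both strands. Serpinb2 held 1 match, which began at base 11 after the first annotated start (that base counted as 1) and 77 bases before the start of the second RefSeq entry. The Plaur window, on the plus strand of chromosome 7, held no TTCNNNGAA and 1 TGANTCA, which began 69 bases before its start. The sites are given with 8 bases on either side, with the motif in capitals. The central base of TGANTCA was A in Serpinb2 and C in Plaur, so the 2 sites are not alike.

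Serpinb2 TTCNNNGAA: tgccagctTTCCAAGAAgcatttcc

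Serpinb2 TGANTCA: taaaatgtTGAATCAtacaaaga

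Plaur TGANTCA: cctggagcTGACTCActctttag

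The windows of Serpine2, Serpinf1 and Serpinf2 held neither motif. Of all 32851 windows of 300 bases in the table, 8.3% held TTCNNNGAA and 7.81% held TGANTCA. A match only says that the letters are present: binding was not measured.

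Library totals ranged from 12998168 to 18683852 counts, and where a gene had 0 counts its level could be at most 0.231 CPM (3 counts in the smallest library, for counting error only). Stat3, the target of the siRNA, had 220, 359 and 405 CPM in controls 1 to 3 and 34.7, 81.9 and 78.9 CPM in anti-Stat3 samples 1 to 3, so the groups did not overlap. All 10 fibroblast markers had counts in every sample. Summed macrophage markers (15 genes) were 47.3, 1793 and 2475 CPM in controls 1 to 3 and 42.2, 1724 and 2855 CPM with Stat3 silenced, so pair 1 stood apart from the other pairs. In pair 1 the macrophage complement genes C1qa, C1qb and C1qc had 0 to 2 counts per library. T cell markers summed to at most 0.27 CPM in any sample, with Cd3d and Cd8a at 0 throughout.

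With all samples in the fit, Serpinb2 was the 1 member of 6 tested that changed past a threshold, and it did so where the fit took the pairs into account. Without a pair term, the quasi-likelihood test in edgeR called 0 of 6 tested members and 0% of all tested genes (0 of 13284, with 235 at an unadjusted p under 0.05 and 17 called by DESeq2 with the group alone). With the pair as a block, edgeR called 1 of 6 members and 0.0602% of all genes, limma-voom 1 of 6 and 0.0602%, and DESeq2 1 of 6 and 1.66%. The member was Serpinb2 each time, and it fell. Because that contrast chose the family, nothing is read from these shares. The control and anti-Stat3 samples overlapped for all 7 members. They did not overlap for 4.67% of all tested genes.

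**Figure D1:**
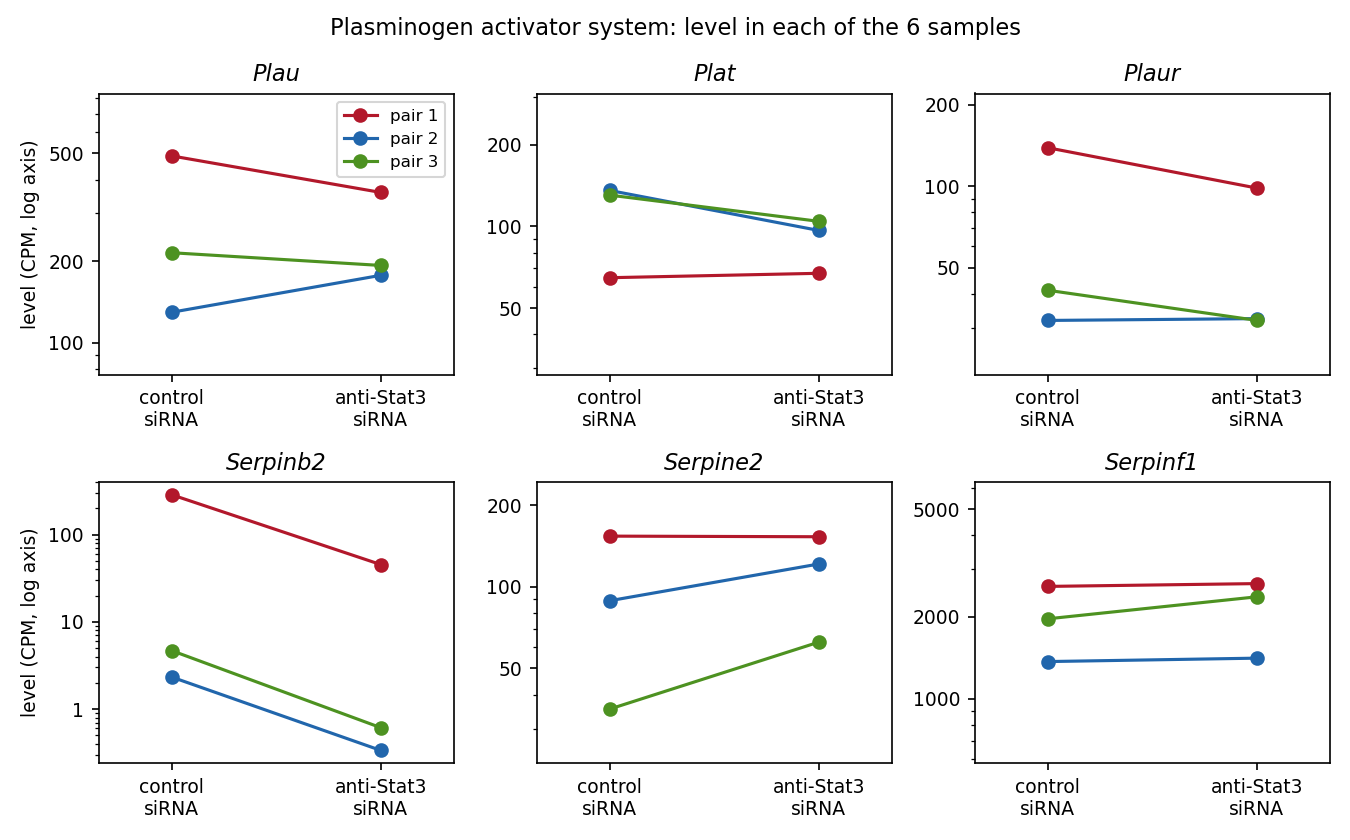
Level of 6 members in each sample, in CPM on a log axis, with control siRNA on the left and anti-Stat3 siRNA on the right of each panel. Each line joins the 2 samples of a pair (red pair 1, blue pair 2, green pair 3). Serpinb2 is lower on the right in all 3 pairs, from control levels of 286, 2.33 and 4.68 CPM, and pair 1 lies highest for every member drawn but Plat. Serpinf2, with 0 to 7 counts per library, is not drawn.

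Plau, which encodes urokinase, showed no shared direction. It had 489, 130 and 215 CPM in controls 1 to 3 and 358, 177 and 193 CPM in anti-Stat3 samples 1 to 3. It was lower after anti-Stat3 siRNA in pairs 1 and 3 and higher in pair 2, with log2 changes of -0.45, 0.45 and -0.16. Counting error did not cover that difference: the anti-Stat3 level was 73.3% of the control level in pair 1 (exact binomial 95% interval 70.8 to 75.9) and 137% in pair 2 (129 to 145). With the pair as a block, edgeR gave a log2 change of -0.05 ± 0.18 (SE, adjusted p = 0.94).

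Plat, which encodes the tissue-type activator, lay lower in pair 1 than in pairs 2 and 3, the opposite order to Plau. Its levels were 64.7, 136 and 131 CPM with control siRNA against 67.2, 96.7 and 104 CPM with Stat3 silenced. The pair log2 changes were 0.05, -0.49 and -0.32. They averaged -0.25 ± 0.28 (SD, n = 3 pairs), and Plat did not pass with the block in edgeR (adjusted p = 0.53). Per kilobase of transcript, Plau stood above Plat in every sample, by 8.14 and 5.75 times in the control and anti-Stat3 sample of pair 1. The ratio was 1.03 and 1.98 in pair 2 and 1.77 and 1.99 in pair 3, so control sample 2 had the 2 activators at nearly the same level.

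Plaur, the receptor for urokinase, was highest in pair 1. It had 139, 32.0 and 41.3 CPM with control siRNA against 98.4, 32.5 and 32.0 CPM with Stat3 silenced. The anti-Stat3 level was 71.0%, 102% and 77.4% of the control level in pairs 1 to 3, with 95% counting intervals of 66.4 to 75.9, 89.9 to 115 and 68.4 to 87.6. In pairs 1 and 3 the interval lay below 100%, and in pair 2 it held 100%. Over the pairs the blocked edgeR log2 change was -0.28 ± 0.13 (SE), which did not pass (adjusted p = 0.48). Per kilobase, Plau exceeded Plaur by 2.27 to 3.88 times in the 6 samples, a narrower range than that of Plau over Plat.

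Serpinb2, plasminogen activator inhibitor 2, inhibits both activators and is largely kept inside cells. Its counts were 4227, 44 and 78 in the controls and 724, 5 and 8 in the anti-Stat3 samples, or 286, 2.33 and 4.68 CPM against 45.4, 0.34 and 0.61 CPM. Every anti-Stat3 sample was lower than its own control, yet anti-Stat3 sample 1 lay above control samples 2 and 3. After anti-Stat3 siRNA 15.9%, 14.5% and 13.1% of the control level was left in pairs 1 to 3. The 95% counting intervals were 14.6 to 17.2% in pair 1, 4.48 to 36.4% in pair 2 and 5.47 to 27.2% in pair 3, so pairs 2 and 3 fix the size of the fall only loosely. For Stat3 itself the corresponding shares were 15.8%, 22.8% and 19.5%.

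The fitted Serpinb2 change rested on how pairs were treated. With the group alone it was -2.65 ± 2.29 (SE) in edgeR, with controls that spanned 2.33 to 286 CPM. With the block the log2 change in edgeR was -2.71 (SE 0.15, adjusted p = 0.0027) and that in DESeq2 was -2.72 (SE 0.24, adjusted p = 1.3e-25). Without pair 3 the blocked edgeR value was -2.67 and its adjusted p 0.11, where edgeR called 0 genes in all. Blocked DESeq2 without pair 3, added after the data were seen, also gave -2.67 (adjusted p = 2.5e-17) and called 20 genes in all. The call without pair 3 thus depended on the method. The Serpinb10 gene shares exon sequence with Serpinb2 in GENCODE and had at most 2 counts per library. The sources used here do not say how reads in shared exons were assigned.

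**Figure D2:**
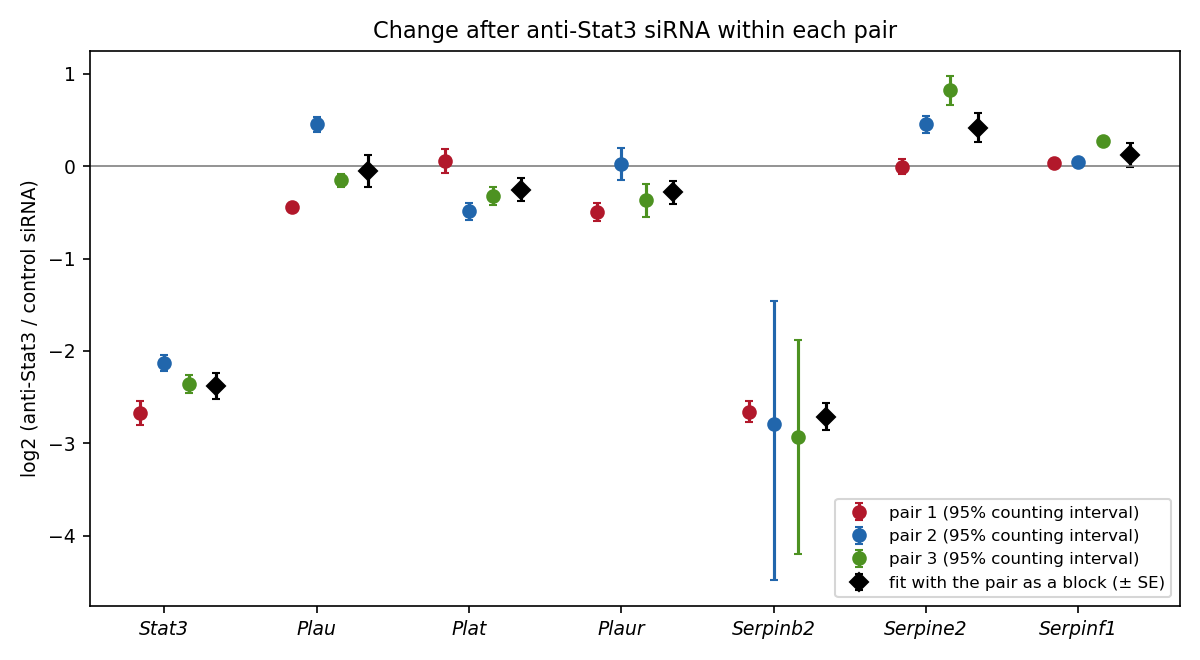
Change after anti-Stat3 siRNA for Stat3 and 6 members, as log2 of anti-Stat3 over control siRNA. Circles are the 3 pairs with 95% counting intervals, and black diamonds are edgeR estimates with the pair as a block, ± SE. Serpinb2 lies near Stat3, with wide intervals in pairs 2 and 3 that come from 5 and 8 anti-Stat3 counts, and the other members lie between -0.49 and 0.82.

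Serpine2, protease nexin 1, a secreted inhibitor of thrombin, urokinase and plasmin, differed in direction from Serpinb2. Its levels were 154, 88.9 and 35.4 CPM with control siRNA against 153, 121 and 62.5 CPM with Stat3 silenced. It was level in pair 1 and higher in pairs 2 and 3, with log2 changes of -0.01, 0.45 and 0.82. The anti-Stat3 level in pair 3 was 176% of the control level (95% counting interval 159 to 197), and in pair 1 it was 99.5% (93.9 to 105). The blocked edgeR change was 0.41 ± 0.16 (SE), which did not pass (adjusted p = 0.40). Without pair 1 it was 0.63 and passed in edgeR (adjusted p = 0.042). That fit called 703 of 13529 tested genes, against 8 of 13284 with all pairs. In blocked DESeq2 without pair 1 the adjusted p of Serpine2 was 0.095.

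Serpinf2 and Serpinf1, neighbours in the serpin family, lay at opposite ends of the range. Serpinf2 encodes alpha-2-antiplasmin, the main plasma inhibitor of plasmin, which the liver makes. It had 7, 3 and 2 counts in the controls and 4, 2 and 0 in the anti-Stat3 samples, too few for the filter and too few for a direction. Serpinf1 encodes pigment epithelium-derived factor, a secreted serpin with anti-angiogenic activity that does not inhibit proteases. It had 2593, 1369 and 1969 CPM with control siRNA against 2655, 1410 and 2373 CPM with Stat3 silenced. It was slightly higher in each pair, with log2 changes of 0.03, 0.04 and 0.27, and did not pass with the block in edgeR (0.12 ± 0.13, SE, adjusted p = 0.80).

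Per kilobase of transcript the control means had a clear top and bottom. Serpinf1 came first with 1079 ± 334 CPM per kb (SD, n = 3 controls), and Plau followed with 119 ± 80.1. The means of Serpinb2 (48.9 ± 81.7), Plaur (46.9 ± 39.2), Plat (43.7 ± 15.7) and Serpine2 (42.0 ± 26.8) lay within each other's SD, and Plau overlapped all 4. The Serpinb2 mean came from control sample 1: its levels were 143, 1.17 and 2.34 CPM per kb in controls 1 to 3, and in controls 2 and 3 it lay below Plaur, Plat and Serpine2. Serpinf2 was last with 0.11 ± 0.09. Serpinf1 made up 69.6 to 85.8% of the summed CPM of the 7 members in the 6 samples. In bulk RNA, fewer cells of a type and less RNA per cell cannot be told apart.

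The levels of the members differed between pairs, a measure that the choice of the family did not use, although the Serpinb2 difference was known before. The edgeR quasi-likelihood F test of the sample number, with the group in the model, called 6 of 6 tested members, and 41.5% of all tested genes. Serpinb2 averaged 166, 1.33 and 2.65 CPM in pairs 1 to 3, which makes pair 1 83.3 times the mean of the others (adjusted p = 4.6e-06). Plaur was 3.44 times as high in pair 1 as in the mean of pairs 2 and 3 (adjusted p = 2.5e-04), Plau 2.37 times (0.0043), Serpine2 1.99 times (0.0020) and Serpinf1 1.47 times (0.010).

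Plat went the other way and was 1.77 times as high in pairs 2 and 3 as in pair 1 (adjusted p = 0.010). By pair mean, pair 2 was lowest for Serpinb2, Plaur, Plau and Serpinf1, and pair 3 was lowest for Serpine2. The call for Plat was lost without control sample 1 (adjusted p = 0.080) and that for Serpinf1 without anti-Stat3 sample 2 (0.079). Each number is 1 control and 1 anti-Stat3 sample. Beyond another description scheme for pair 3, the sources used here do not say what samples of a number share.

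Cell type markers moved with the pairs too. Summed macrophage markers were at most 47.3 CPM in pair 1 and at least 1724 CPM in pairs 2 and 3, so pair 1 was lowest where Serpinb2, Plaur and Plau were highest. Between pairs 2 and 3 the macrophage sum and these 3 members had the same order, with pair 3 higher by pair mean. Summed fibroblast markers (10 genes) ranged from 21682 to 25456 CPM in pair 1 and from 42100 to 68798 CPM in pairs 2 and 3. The collagens Col1a1, Col1a2 and Col3a1 made up most of that sum. The median over the list differed less, at 638 to 661 CPM in pair 1 and 931 to 994 CPM in pairs 2 and 3. Summed epithelial or tumour markers (12 genes) were 172 to 177 CPM in pair 1, 486 to 495 CPM in pair 2 and 80.6 to 82.4 CPM in pair 3. Their part in the pair differences was not tested. Endothelial markers, all 8 in the table, summed to at most 39.3 CPM.

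**Figure D3:**
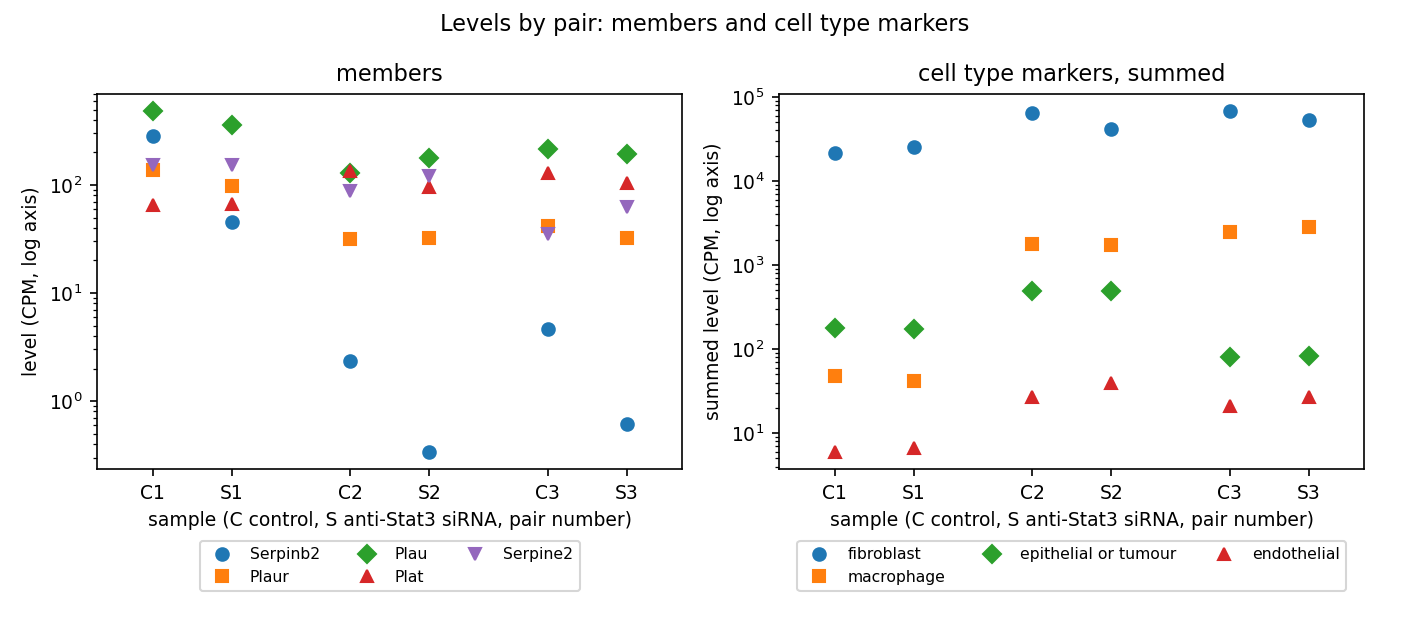
Left, level of 5 members (CPM, log axis) and right, summed levels of 4 cell type marker lists (CPM, log axis), by sample; C is control siRNA, S is anti-Stat3 siRNA, and the number is the pair. Serpinb2, Plaur and Plau are highest in C1 and S1, where the summed macrophage markers are lowest at 47.3 and 42.2 CPM.

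Over the 6 samples, log2 levels of Plaur correlated with those of Serpinb2 at r = 0.96 and with those of Plau at 0.96, and Plat with Plau at -0.89 (Pearson, n = 6). Such values largely restate the pair differences, since both samples of a pair share that level. Among 11913 genes (mean log2 CPM 1 or higher), those most like Serpinb2 were Clcf1, Timp1 and Mapk14 (r = 0.99 each). Timp1 had 1160, 346 and 445 CPM with control siRNA against 782, 239 and 322 CPM with Stat3 silenced, a far smaller range than that of Serpinb2. Prkar2b and Tatdn2 were among those most like Plaur, those most like Plau were Pwp2, Ccdc137 and Wdr77, and those most like Plat were Ip6k1, Rbm4b and Ccar2, at r of 0.99 to 1.00. For Serpine2 they were 6720489N17Rik, Gm8773 and Hrsp12, and for Serpinf1 they were Chmp7, Dolk and Hspb1, at r of 0.99 to 1.00.

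Plasminogen itself was near 0: Plg had 1 count in anti-Stat3 sample 2 and 0 in the other samples, and Cpb2, a carboxypeptidase that slows fibrin lysis, had 1 count in control 3. Its cell-surface receptors were expressed, and 0 of the 4 tested genes of that list passed in a fit blocked on all 3 pairs. Their median log2 change in edgeR with the group alone was 0.29, against -0.0028 over all genes tested, and 0.26 with the block, against -0.0053. Of these 4 genes, 3 were higher in all 3 pairs, as were 2296 of all 13284 tested genes. With 4 genes, nothing is read from that count. S100a10, which pairs with annexin A2 to bind plasminogen, had 125, 69.2 and 110 CPM with control siRNA against 147, 76.2 and 242 CPM with Stat3 silenced. Its blocked edgeR change was 0.50 ± 0.20 (SE, adjusted p = 0.42). Anxa2 had a change of 0.27 ± 0.14 and Plgrkt, a transmembrane plasminogen receptor, one of 0.26 ± 0.14 (SE), and neither passed, although the groups did not overlap for Plgrkt. Eno1, which also binds plasminogen, had 12 to 45 counts per library. Enolase has near-identical copies in the genome, so that level is uncertain.

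Among clearance receptors and urokinase receptor partners, 7 of 8 genes were tested and 0 passed in a fit blocked on all 3 pairs. Their median log2 change in edgeR was -0.07 with the group alone and 0.01 with the block, so its sign turned with the fit. Lrp1, the endocytic receptor that removes complexes of activators and serpins, had 2101, 5203 and 5263 CPM with control siRNA against 2422, 4702 and 3263 CPM with Stat3 silenced. Its blocked edgeR change was -0.21 ± 0.19 (SE). Mrc2, a collagen receptor that associates with the urokinase receptor, was higher in each pair by 0.18, 0.20 and 0.20 on the log2 scale and did not pass (adjusted p = 0.59). Vldlr (-0.35 ± 0.13) and Lrp8 (-0.21 ± 0.11, SE), related lipoprotein receptors, were lower in each pair and did not pass in blocked edgeR.

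Of 39 other inhibitors, 17 were tested, with a median log2 change in edgeR of 0.03 with the group alone and 0.04 with the block. In blocked edgeR 0 of them passed. In blocked DESeq2 1 of them rose and 0 fell, where 116 of all 13284 tested genes rose and 104 fell. The riser was Serpinb9, an inhibitor of granzyme B, with 91.8, 36.4 and 71.2 CPM with control siRNA against 111, 75.6 and 133 CPM with Stat3 silenced. It was higher in each pair and rose by 0.74 ± 0.19 (SE) in that fit (adjusted p = 0.0084, and 0.17 in blocked edgeR). Serpinb9 has close copies in the mouse genome, so its own value is uncertain.

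Of 13 coagulation and fibrin genes 7 were tested and 0 passed in a fit blocked on all 3 pairs. The median log2 change in edgeR was -0.39 with the group alone and -0.23 with the block. F2r, the thrombin receptor PAR-1, had 730, 359 and 329 CPM with control siRNA against 1063, 1286 and 751 CPM with Stat3 silenced. Its groups did not overlap, but the blocked edgeR change of 1.19 ± 0.23 (SE) did not pass (adjusted p = 0.17). Pros1, which encodes the anticoagulant protein S, had -0.35 ± 0.14 (SE) and F2rl1, the related receptor PAR-2, 0.54 ± 0.26. F13a1, a transglutaminase subunit that crosslinks fibrin, had at most 4.50 CPM in any sample.

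A last list held 13 growth factors, proteases and related genes that act next to the activators and plasmin. Of these, 10 were tested, with a median log2 change in edgeR of -0.14 both with the group alone and with the block. In blocked edgeR 0 passed. In blocked DESeq2 2 fell, Mmp3 and Mmp13, where 104 of all 13284 tested genes fell. Both encode matrix metalloproteinases whose proforms plasmin can cleave. Mmp3 had 385, 127 and 21.7 CPM with control siRNA against 146, 48.2 and 2.99 CPM with Stat3 silenced, and Mmp13 40.9, 18.2 and 5.28 CPM against 7.96, 10.4 and 1.23 CPM. Across the 6 tested members the median in edgeR was -0.25 with the group alone and -0.15 with the block, with 1 lower and 1 higher in all 3 pairs, Serpinb2 and Serpinf1. The share with 1 direction across the 3 pairs was 33.7% over all tested genes.

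**Figure D4:**
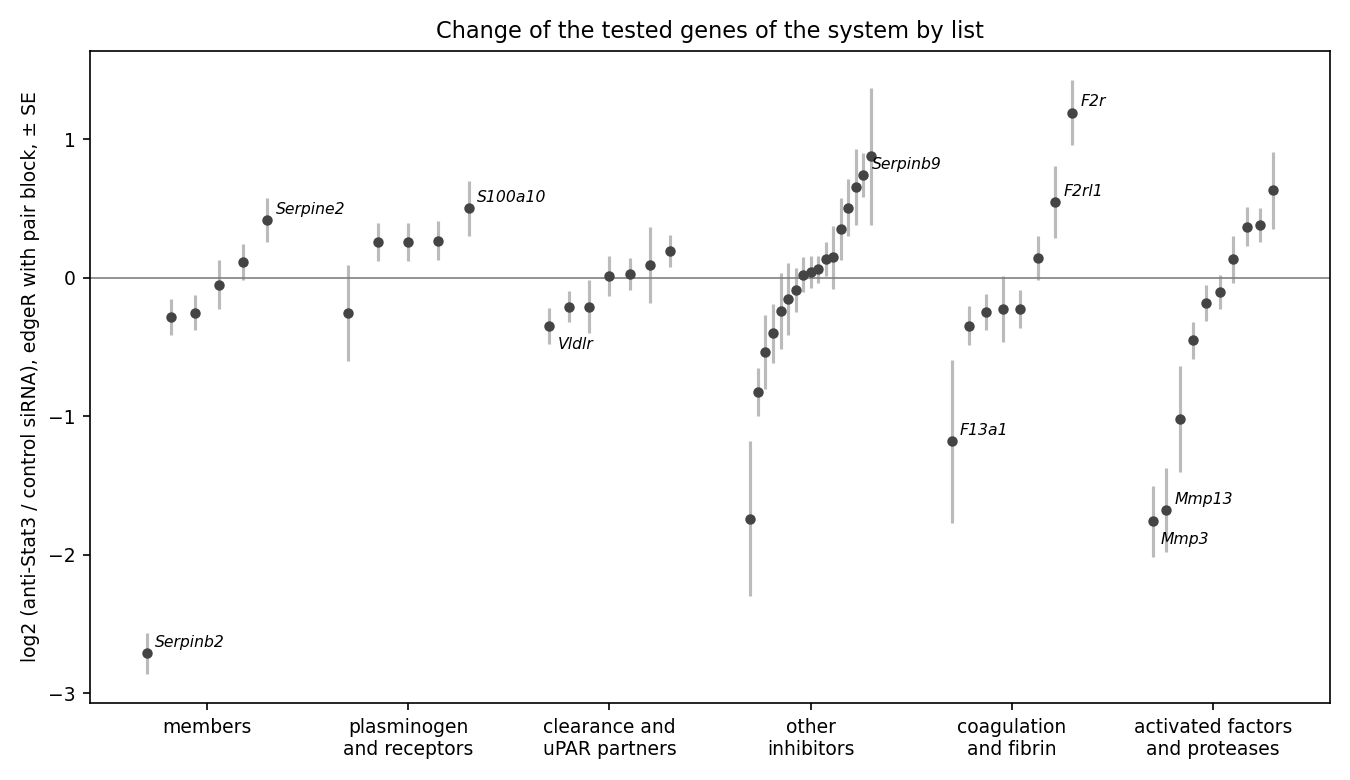
Change after anti-Stat3 siRNA for the tested members and the tested genes of 5 lists of the system, as log2 of anti-Stat3 over control siRNA in edgeR with the pair as a block; points are genes sorted within a list and bars are ± SE. Plg and Fgg were not tested but are also drawn, and these points are to be disregarded. The point for Plg (0.26) repeats that of Plgrkt, and the point for Fgg (0.14) is not a value of Fgg. Serpinb2, at -2.71, has the lowest value drawn, and F2r, at 1.19, the highest.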

How the data were processed

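The authors deposited 1 table of raw counts per gene symbol for 6 samples, for which the submitters' processing notes name TopHat2 2.0.10, HTSeq and the build mm9. Per the labels' protocols, RNA with a RIN of at least 9 was selected for poly(A) and made into TruSeq libraries. Strand use, the annotation and the treatment of shared reads are not given in the sources used here. Columns begin with "sh" where titles have "si", and were matched by group and number; 0 sample columns were left unused and 0 were identical.

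Counts were tested in R 4.3.3 with edgeR 4.0.16 (quasi-likelihood, TMM, filterByExpr with a minimum count of 10 and a minimum total of 15) over all 13284 genes, with Benjamini-Hochberg adjustment at 0.05. Alternatives were the replicate block, DESeq2 1.42.0, limma-voom (limma 3.58.1), RLE scaling, no filter, a batch term for the other description scheme of pair 3, and leaving out samples or pairs. Blocked DESeq2 without each pair was added after the data were seen. The fits were tested on simulated data with dispersions taken from the blocked model. That test cannot show whether the pairing is right. Log2 CPM used a prior count of 2. Deviations from the group means correlated at 0.82 to 0.83 where samples shared a number, so the numbers were taken as pairs. Other combinations gave -0.16 or below. Deviations within a group cancel out for each gene, so high values for shared numbers make the others negative on average. The negative values thus add no separate support. Separate cultures or animals are not named in the labels. The p-values thus cover the spread of these samples alone, which may be technical. With 3 against 3 unpaired samples an exact permutation p cannot go below 0.1. Its floor is higher where the 3 pairs are kept, and no such p was used.

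Members, lists and the naming rule were chosen with earlier results of these data known. The rule took Stat3, the members, the 3 most correlated genes of each tested member, and from each list the genes called in a blocked edgeR or DESeq2 fit, or else up to 4 with the smallest p in blocked edgeR. Plg, Cpb2, Serpinb10 and the marker genes were named outside it, after their values were seen. Not every gene of the system, or that the rule took, is reported here. Lengths are those of the longest principal transcript in GENCODE M21 (GRCm38), another build than mm9, so levels per kilobase are approximate.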

Additional observations from a re-analysis of the deposited data

How the results depend on the processing

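Results are for anti-Stat3 against control siRNA unless named otherwise. The number of genes called was 0 in edgeR with the group alone, 8 with the replicate block, 8 in limma-voom with that block, 17 in DESeq2 with the group alone and 220 in DESeq2 with the block. In edgeR with a batch term for the description scheme of pair 3 in place of the block, it was 0. It ranged from 0 to 703 with a sample or pair left out, the highest without pair 1 in blocked edgeR. Without control sample 1 and with the group alone it was 40. Blocked DESeq2 called 432, 14 and 20 genes without pairs 1, 2 and 3. With samples or pairs left out, log2 changes ranged from -7.68 to 2.14 for Serpinb2, from -0.11 to 0.85 for Serpine2, from -0.59 to 0.49 for Plau, from -1.13 to 0.56 for Plaur, from -0.58 (without control sample 1) to -0.13 (without control sample 2) for Plat and from -0.087 to 0.36 for Serpinf1. The Serpinb2 extremes, without anti-Stat3 sample 1 and without control sample 1, each break a pair. With whole pairs left out, the blocked edgeR values of Serpinb2 were -2.85, -2.71 and -2.67. Plau turned to 0.15 without pair 1 in blocked edgeR and DESeq2, to 0.0021 and 0.0079 without pair 3, and averaged 0.0024 within pairs 1 and 2. DESeq2 with the group alone gave Serpinb2 no p. The replicate block changed no member's call but that of Serpinb2, with all pairs in the fit. For levels between pairs, 5519 genes were called, and 2823 to 6147 with 1 sample left out, the fewest without anti-Stat3 sample 3. Depth limits Serpinb2 in pairs 2 and 3 and Serpinf2 everywhere.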

Other observations

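Of 9 other tested serpins of clade B, the family of Serpinb2, 7 were called for a difference in level between pairs, where 41.5% of all tested genes were called. Serpinb8 and Serpinb1c were not called (adjusted p of 0.66 and 0.13, edgeR quasi-likelihood F test). The genes named here were picked after their values were seen, and several have close copies in the mouse genome, so single values are uncertain. Serpinb9b averaged 152, 14.1 and 26.2 CPM in pairs 1 to 3 (adjusted p of the sample number 5.4e-04 in the edgeR quasi-likelihood F test), and Serpinb6b averaged 110, 17.2 and 32.1 CPM (3.6e-05). Both were highest in pair 1, as Serpinb2 was. Serpinb1a, an inhibitor of neutrophil proteases, was highest in pair 3, with averages of 2.52, 4.29 and 33.3 CPM. Serpinb5, the epithelial serpin maspin, averaged 3.93, 6.85 and 0.32 CPM, the same order of pairs as the summed epithelial or tumour markers.

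The cell-surface anticoagulant genes Thbd (thrombomodulin) and Procr (the protein C receptor) were likewise highest in pair 1. Thbd had 587, 87.4 and 143 CPM with control siRNA against 401, 81.2 and 141 CPM with Stat3 silenced. Procr had 106, 15.1 and 15.5 CPM with control siRNA against 53.8, 18.1 and 17.1 CPM with Stat3 silenced. Neither passed for the siRNA in edgeR or DESeq2 blocked on all 3 pairs.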
